A study of Mus musculus with 2 samples.

Results

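The 10 genes described here are the immediate early genes Fos, Fosb, Fosl2, Jun, Junb, Jund, Egr1, Nr4a1, Nr4a2 and Nr4a3, chosen by symbol from the 31054 features of a single-cell RNA-seq data set of mouse islets. Each symbol matched 1 feature, so all 10 were found. There were 2 groups, each measured as 1 droplet library (10x Genomics): islets of Tg7 mice, in which β-cells overexpress miR-7a2, a microRNA, and islets of Wild-type littermates, all males of strain C57Bl6 at 12 weeks of age. By the study's text, the mice of both groups also carried a tdTomato reporter that marks β-cells. Neither the promoter of the Tg7 transgene nor the number of mice in a library is given in the sources used here.

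Immediate early genes are transcribed within minutes of a stimulus without new protein synthesis. In β-cells, glucose and other secretagogues induce them through calcium, cAMP and the ERK pathway, which act on the factors CREB, SRF and Elk at their promoters. Fos proteins pair with Jun proteins to form the transcription factor AP-1, Egr1 is a zinc finger factor, and Nr4a1, Nr4a2 and Nr4a3 are orphan nuclear receptors. The same genes are induced when a tissue is digested into single cells, and the islets here were isolated with Liberase and then dissociated. As 1 preparation stood for each genotype, genotype and preparation cannot be told apart, and no value below has a replicate check or a test between mice. The study's text also describes Tg7 mice of this age as hyperglycaemic, and the part of this in the values was not tested.

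Promoters are shown for 4 members whose values differ below: Fos, Fosb and Nr4a1, all past 2-fold in β-like cells, and Jun, which was within 2-fold. The sequences are from RefSeq in build GRCm38.p6 (mm10) and give the 250 bases before each annotated start, 5′ to 3′ on the strand of the gene. They lie at chr12:85473640-85473889 (Fos, + strand), chr7:19310046-19310295 (Fosb, - strand), chr15:101266596-101266845 (Nr4a1, + strand) and chr4:95052223-95052472 (Jun, - strand). Capitals mark the CRE core TGACG, or CGTCA on the other strand, which is part of the element bound by CREB, and in Fos also the TATA box TATAAA.
Fos: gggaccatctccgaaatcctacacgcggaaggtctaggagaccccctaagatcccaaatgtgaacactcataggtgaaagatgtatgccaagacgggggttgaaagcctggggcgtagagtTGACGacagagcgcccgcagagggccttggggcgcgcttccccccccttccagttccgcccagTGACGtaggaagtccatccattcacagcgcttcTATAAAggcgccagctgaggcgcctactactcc
Fosb: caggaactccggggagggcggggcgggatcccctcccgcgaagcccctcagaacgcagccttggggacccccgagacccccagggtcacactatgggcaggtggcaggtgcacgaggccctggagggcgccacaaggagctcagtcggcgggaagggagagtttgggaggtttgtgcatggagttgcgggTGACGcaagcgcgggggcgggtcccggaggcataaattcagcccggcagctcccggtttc
Nr4a1: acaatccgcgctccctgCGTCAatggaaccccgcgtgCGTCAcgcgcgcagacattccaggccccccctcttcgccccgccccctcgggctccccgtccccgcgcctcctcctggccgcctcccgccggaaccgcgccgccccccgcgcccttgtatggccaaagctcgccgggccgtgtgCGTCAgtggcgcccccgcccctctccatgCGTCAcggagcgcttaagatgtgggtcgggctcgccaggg
Jun: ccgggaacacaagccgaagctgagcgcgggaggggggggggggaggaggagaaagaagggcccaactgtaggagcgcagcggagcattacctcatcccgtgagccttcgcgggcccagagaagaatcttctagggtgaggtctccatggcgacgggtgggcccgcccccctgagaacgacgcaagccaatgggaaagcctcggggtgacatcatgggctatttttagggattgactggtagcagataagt

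The Fos window held 2 CRE cores, at 129 to 125 and 66 to 62 bases before the start, and a TATA box 33 to 28 bases before it. Fosb held 1 core, 60 to 56 bases before the start, and Nr4a1 held 4, of which the nearest lay 69 to 65 and 40 to 36 bases before the start. Jun held none in this window. The number of cores did not follow the ratio over all members: Fosl2 held 0 and was 4.47-fold lower in Tg7 β-like cells, and Nr4a2 held 4 and had a ratio of 0.557. Egr1 had no window in the table. Of the 9 members with a window, 6 held a CRE core (Fos, Fosb, Junb, Nr4a1, Nr4a2 and Nr4a3), against 17.8% of all 32851 windows of this length. Each of the Nr4a genes held 4 cores, a number reached in 0.137% of all windows. The full CRE TGACGTCA, which contains the core on both strands, was in none of the 9 and in 1.55% of all windows, and the AP-1 site TGACTCA, searched on both strands, was in none of the 9 and in 4.46%. The CArG box, the site of SRF, was searched by its consensus and found in none of the 9 and in 1.47% of all windows. TATAAA, searched on the strand of the gene, was in Fos alone of the 9 and in 7.59% of all windows. A match is a description of these letters and says nothing about which factor was bound.

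After filters 992 Tg7 and 749 Wild-type cells were used, with medians of 24246.5 and 39579 UMIs (unique molecular identifiers, each counted as 1 transcript molecule). Ins1, Ins2, Gcg, Sst, Ppy, Pyy and Iapp took 43.1% of UMIs in the Tg7 library and 63.3% in the Wild-type library, so levels are given per 10000 UMIs of all other genes (non-hormone UMIs), of which the median cell had 12888 and 12841. The libraries shared 0 barcodes. Clusters were named from marker genes as β-like (656 Tg7 and 481 Wild-type cells, led by Ins2, Ins1 and G6pc2) and α-like (184 and 147, led by Gcg and Ttr). A δ-like cluster (81 and 70) was led by Sst and Rbp4, with Ins2, Gcg, Ins1 and Hhex also among its 10 leading genes. Others were γ-like (27 and 10, led by Ppy and Pyy) and endothelial-like (19 and 31, with Plvap, Flt1 and Kdr among its leading genes). Ins1 made up 1.82% of UMIs in Tg7, against 19.1% in Wild-type β-like cells. Intervals are at the 95% level and cover counting error only.

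In β-like cells 6 of the 10 members were at least 2-fold lower in Tg7: Fos, Fosb, Fosl2, Junb, Nr4a1 and Nr4a3. None was at least 2-fold higher. Of 12829 genes with at least 20 UMIs, 5.79% were at least 2-fold lower and 10.6% at least 2-fold higher, and the median log2 ratio was -1.36 over the members, against -0.02 over all genes. Per non-hormone UMI, Egr1 was the single member whose level was close to equal in both libraries. When counts were scaled to all UMIs, hormones included, all ratios in β-like cells were multiplied by 1.75, a log2 shift of 0.81 for all genes alike. The members at least 2-fold lower were then 2, Fosl2 and Nr4a1, and 0 were 2-fold higher, where 1.79% of all genes were at least 2-fold lower and 33.9% higher. On that scale the median of the members was -0.55, against 0.79 for all genes.

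**Figure D1:**
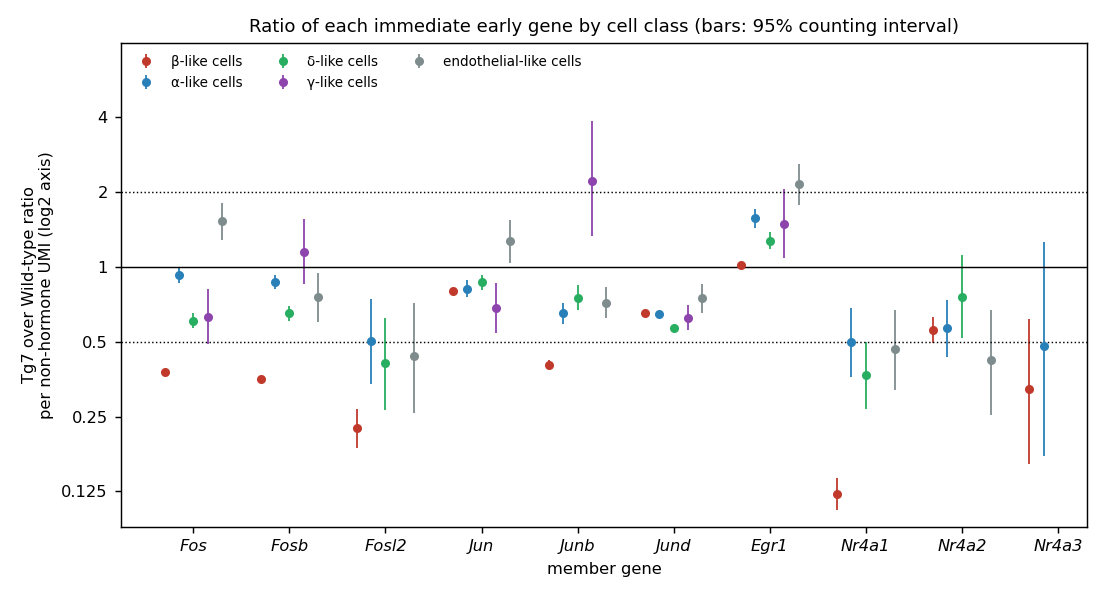
Ratio of Tg7 over Wild-type for each member and class, per non-hormone UMI on a log2 axis, with the 95% counting interval. Members under 20 UMIs in a class are left out, and dotted lines mark 2-fold. Nr4a1 in β-like cells is the lowest point at 0.122, and Egr1 is at or above 1 in all 5 classes.

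Fos, Fosb and Fosl2 encode the Fos side of AP-1, which needs a Jun partner to bind DNA. Fos had 9.40 UMIs per 10000 (9.23 to 9.57, from 11859 UMIs) in Tg7 β-like cells, against 24.9 (24.6 to 25.3, from 20337 UMIs) in Wild-type β-like cells, 2.65-fold lower (2.59 to 2.71). Fosb had 5.95 per 10000 (5.82 to 6.09) in Tg7, against 16.8 (16.5 to 17.1) in Wild-type, 2.82-fold lower. Fosl2, also called Fra-2, had 0.130 per 10000 (164 UMIs) in Tg7, against 0.581 (474 UMIs) in Wild-type, 4.47-fold lower with an interval of 3.73 to 5.37. All 3 Fos genes were thus lower by more than 2-fold, and of all genes with 20 UMIs only 3.04% had a lower ratio than Fos and 1.18% a lower ratio than Fosl2.

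Jun, Junb and Jund encode the Jun side, of which Jund is the member known to be expressed at a steady level in unstimulated cells. Junb was lower, with 2.40 per 10000 (2.32 to 2.49) in Tg7, against 5.96 (5.79 to 6.13) in Wild-type β-like cells, a ratio of 0.403. Jun had 10.4 per 10000 (10.2 to 10.6) in Tg7, against 13.0 (12.7 to 13.2) in Wild-type, a ratio of 0.80 that became 1.40 when scaled to all UMIs. Jund had 20.4 per 10000 (20.1 to 20.6) in Tg7, against 31.2 (30.9 to 31.6) in Wild-type, a ratio of 0.652 that became 1.1 when scaled to all UMIs. The direction for Jun and Jund therefore depended on the scale, and that for Junb did not (0.705 on all UMIs).

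Egr1, which shares its promoter inputs from ERK and SRF with Fos, had 9.34 UMIs per 10000 (9.17 to 9.51, 11776 UMIs) in Tg7 β-like cells, against 9.15 (8.95 to 9.36, 7470 UMIs) in Wild-type. Its ratio of 1.02 had an interval of 0.991 to 1.05, and 53.9% of genes had a lower ratio. Scaled to all UMIs the ratio was 1.78.

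Nr4a1, also known as Nur77, had the lowest ratio of the members. It had 0.174 per 10000 (0.151 to 0.198, 219 UMIs) in Tg7 β-like cells, against 1.42 (1.34 to 1.51, 1162 UMIs) in Wild-type, 8.20-fold lower (7.09 to 9.52) and 0.213 times the Wild-type level when scaled to all UMIs. Only 0.538% of the genes tested had a lower ratio. Its relative Nr4a2 (Nurr1) had 503 UMIs in Tg7, against 584 in Wild-type β-like cells, a ratio of 0.557 (0.494 to 0.629) that was 0.975 on all UMIs. Nr4a3 (Nor1) had 15 UMIs in Tg7, against 30 in Wild-type, a ratio of 0.324 whose interval reached from 0.162 to 0.620.

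Comparing 1 member with another inside the same cells needs no scale. In Tg7 β-like cells there were 1.01 Fos UMIs (0.982 to 1.03) for each Egr1 UMI, against 2.72 (2.65 to 2.80) in Wild-type β-like cells. Nr4a1 had 0.0186 UMIs for each Egr1 UMI in Tg7, against 0.156 in Wild-type. Of all UMIs of the 10 members, Egr1 held 15.9% in Tg7, against 8.82% in Wild-type β-like cells, and Fos held 16.1% and 24.0%. The make-up of the immediate early transcripts in β-like cells thus differed by more than counting error, whichever total is used. Fewer Fos UMIs per Egr1 UMI in Tg7 were not particular to β-like cells. There were 1.08 in Tg7, against 1.82 in Wild-type α-like cells, and 0.942 and 1.97 in δ-like cells. In γ-like cells there were 0.858 and 2.02, and in endothelial-like cells 1.09 and 1.54, with overlapping intervals in the latter. Nr4a1 per Egr1 UMI was also lower in α-like, δ-like and endothelial-like cells. These pairs were chosen after the values were seen.

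The lower sums did not rest on a few cells. After every β-like cell was thinned to 2000 non-hormone UMIs, which left out 24 Tg7 and 5 Wild-type cells, Fos was seen in 71.8% of 632 Tg7 cells (68.2% to 75.3%) and 89.1% of 476 Wild-type cells (85.9% to 91.7%). Nr4a1 was seen in 2.69% of Tg7 cells (1.57% to 4.27%) and 19.7% of Wild-type cells (16.3% to 23.6%), and before thinning in 22.3% and 70.9%. Egr1 was seen in 73.6% of Tg7 cells (70.0% to 77.0%) and 68.5% of Wild-type cells (64.1% to 72.6%). Fosb, the member with the largest gap in share, was seen in 60.9% of Tg7 cells, against 90.1% of Wild-type cells. Jun was seen in 74.2% of Tg7 cells (70.6% to 77.6%) and 84.0% of Wild-type cells (80.4% to 87.2%), and Nr4a2 in 7.44% (5.52% to 9.77%) and 13.0% (10.1% to 16.4%). At this depth Fos, Fosb, Fosl2, Jun, Junb, Nr4a1 and Nr4a2 were thus seen in a smaller share of Tg7 cells without overlap of the intervals. The intervals of Jund, Egr1 and Nr4a3 overlapped. Other genes were not thinned, so the share of all genes without overlap is not known and the list is only a description. Equal depth here means equal non-hormone UMIs, and shares of cells were not read on all UMIs. On that scale the ratio was 1.40 for Jun and 0.975 for Nr4a2, and it stayed below 1 for Fos, Fosb, Fosl2, Junb and Nr4a1.

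No class here is known to lack these genes, so no background share could be set for them. As a guide to free RNA, insulin (Ins1 plus Ins2) made up 0.435% of UMIs in Tg7, against 0.166% in Wild-type endothelial-like cells, at median depths of 4269 and 6035 UMIs, against 28.1% and 62.8% in β-like cells, at 29632 and 49062 UMIs.

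**Figure D2:**
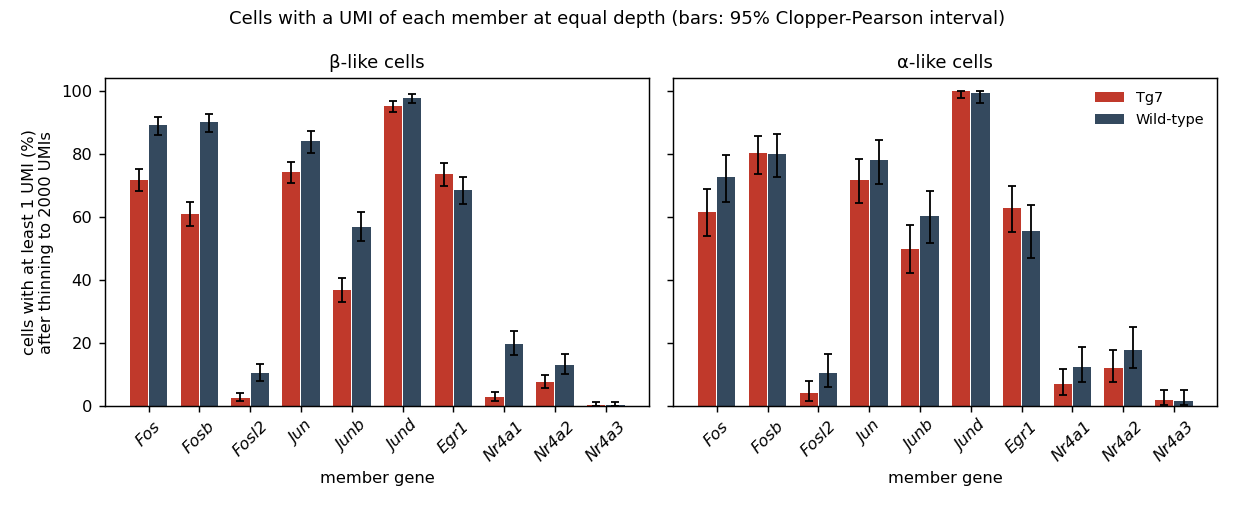
Share of β-like (left) and α-like (right) cells with at least 1 UMI of each member after thinning to 2000 non-hormone UMIs, Tg7 left of Wild-type, with 95% Clopper-Pearson intervals. In β-like cells Fosb is seen in 60.9% of Tg7 cells, against 90.1% of Wild-type cells, and Egr1 in 73.6% and 68.5%.

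The 10 members together had a median of 54.4 UMIs per 10000 over 632 Tg7 β-like cells, from 0 to 208.4, with quartiles at 37.3 and 72.2. In 476 Wild-type β-like cells the median was 97.8, from 0 to 260.3, with quartiles at 75.9 and 122.6. The upper quartile of Tg7 cells was thus below the lower quartile of Wild-type cells, although the full ranges overlapped. This gap was read on the non-hormone scale, where the ratio of the summed members was 0.564 (0.559 to 0.570), and when scaled to all UMIs that ratio was 0.987. Thinned Fos counts had a variance of 2.73 times their mean in Tg7, against 3.08 times in Wild-type cells, so cells differed more than counting alone gives. Removal of the 5% of cells with most member UMIs from each library left a Fos ratio of 0.372.

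Fos, Fosb, Jun and Egr1 correlated with each other in both libraries. Across cells of 1 library, which share that library and differ in depth, the Pearson correlation of log2 levels between Fos and Jun was 0.59 in 632 Tg7 cells, against 0.64 in 476 Wild-type β-like cells. Fos and Fosb gave 0.54 and 0.56, and Fos and Egr1 gave 0.52 and 0.51. Egr1, whose level per non-hormone UMI was near equal between libraries, was thus higher in cells with more Fos in both of them. Nr4a1 and Fosb gave 0.17 in Tg7, against 0.39 in Wild-type, at unequal levels of sparse counts. Fos also followed depth, with a correlation to log2 non-hormone UMIs of 0.17 in Tg7, against 0.35 in Wild-type cells. Fosl2, Nr4a2 and Nr4a3 had correlations with Fos between -0.06 and 0.07.

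**Figure D3:**
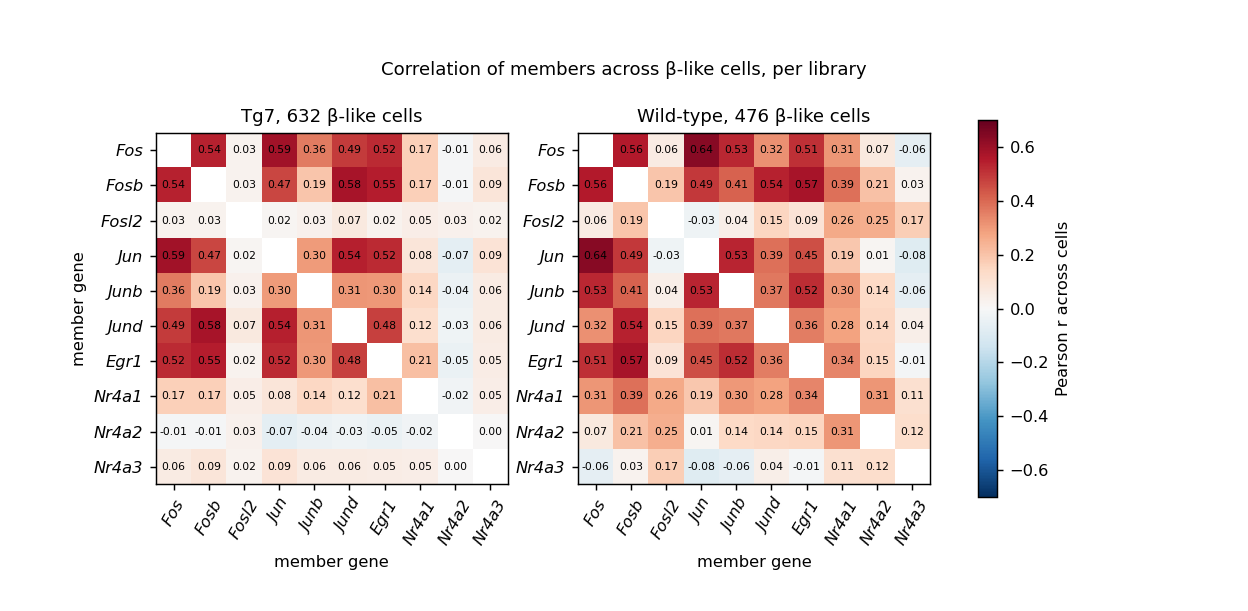
Pearson correlation of log2(1 + UMIs per 10000 non-hormone UMIs) between members across β-like cells, Tg7 left (632 cells) and Wild-type right (476 cells). The pair with the highest value in both libraries is Fos and Jun, at 0.59 in Tg7, against 0.64 in Wild-type.

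Among genes outside the lists compared here, the 5 whose level over β-like cells was most like that of the summed members, by the lower correlation of the libraries over 8079 genes, were Ddx5, Actb, C2cd4b, Actg1 and Irf2bp2. Their correlations were 0.43, 0.50, 0.36, 0.48 and 0.34 in Tg7, and 0.39, 0.36, 0.47, 0.35 and 0.37 in Wild-type. Actb and Actg1 encode the cytoplasmic actins and Ddx5 an RNA helicase. Of the genes of the lists, Btg2, Ier2, Dusp1 and Atf3 came higher than all 5, led by Btg2 (0.53 in Tg7, against 0.57 in Wild-type), an immediate early gene that restrains cell division.

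β-like cells differed in their Ins1 share, and the members were read along that range. The cells of each library were ranked by it into 3 bins of near equal size. In Tg7 the bins had median Ins1 shares of 0.324%, 1.26% and 2.98% of UMIs, and Fos was at 8.23, 8.99 and 10.9 UMIs per 10000 from the lowest Ins1 share to the highest. In Wild-type the bins had median shares of 14.4%, 19.1% and 22.3%, and Fos was at 22.6, 28.0 and 24.2. Every Tg7 bin was thus below every Wild-type bin for Fos, and this also held for Fosb, Fosl2, Junb, Jund, Nr4a1 and Nr4a2. It held for Nr4a3 as well, on few UMIs, by 0.0193 in its highest Tg7 bin against 0.0201 in its lowest Wild-type bin. Other genes were not read in the bins, so the share of all genes with such an order is not known. The bins were read per non-hormone UMI and not on all UMIs. Egr1 gave 9.12, 9.40 and 9.43 in the Tg7 bins and 9.32, 10.05 and 7.96 in the Wild-type bins, which overlapped, as did those of Jun. Nr4a1 was at 0.227, 0.153 and 0.157 in the Tg7 bins and at 1.46, 1.58 and 1.21 in the Wild-type bins. The bins are ranges of 1 measure, not cell types.

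The β-like cells came from 3 clusters, of 240, 193 and 223 Tg7 and 223, 152 and 106 Wild-type cells. Fos had 7.24 UMIs per 10000 in Tg7, against 22.0 in Wild-type cells of the first cluster, 13.1 and 29.3 in the second, and 8.94 and 24.8 in the third. Egr1 had 6.53 in Tg7, against 7.42 in Wild-type cells of the first, 10.3 and 9.43 in the second, and 10.7 and 11.3 in the third. Cells of the second cluster held most Fos and most Jun in both libraries, yet the gap in Fos was present in each cluster. Jun there had 15.0 in Tg7, against 15.9 in Wild-type cells, closer together than in the first cluster (7.95 and 12.2).

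Of the 12 β markers, 11 were at least 2-fold lower in Tg7 β-like cells, with a median log2 ratio of -3.32 and a summed level of 7259 UMIs per 10000 non-hormone UMIs, against 20946 in Wild-type, insulin included in both sums. Markers of other endocrine cells were higher. The 10 α markers summed to 289 UMIs per 10000 in Tg7, against 59.7 in Wild-type β-like cells, with 7 of the 10 measured at least 2-fold higher. The 8 γ markers summed to 191 in Tg7, against 11.3 in Wild-type, and the 10 δ markers to 59.5 and 35.6. A gate kept cells in which insulin held at least 90% of UMIs of the 4 islet hormones (537 Tg7 and 491 Wild-type cells). In these cells 6 members were at least 2-fold lower, and the share of all genes was not measured there. Duct markers summed to 6.93 in Tg7, against 2.78 in Wild-type, and acinar markers to 0.337 and 0.0404. Macrophage markers summed to 0.349 UMIs per 10000 in Tg7, against 0.820 in Wild-type, a ratio of 0.426. Of 7 T or NK cell markers 6 were at 0 in Tg7, against 7 in Wild-type. The median mitochondrial share was 4.51% in Tg7, against 3.72% in Wild-type β-like cells, and the part of these markers and of this share in the values was not tested.

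In α-like cells most members stood closer to their Wild-type level than in β-like cells, per non-hormone UMI. Nr4a1 and Nr4a3 were at least 2-fold lower in Tg7 and none was 2-fold higher, where 3.03% of 9358 genes were lower and 2.74% higher. The median log2 ratio was -0.63 over the members, against -0.04 over all genes. Fos had 8.92 UMIs per 10000 (8.49 to 9.37) in Tg7, against 9.62 (9.11 to 10.1) in Wild-type α-like cells, a ratio of 0.928 (0.863 to 0.998), and Fosb had 10.7 in Tg7, against 12.4 in Wild-type, a ratio of 0.869. Both intervals lay above those of β-like cells without overlap. Scaled to all UMIs, Fos had a ratio of 0.856 in α-like and 0.660 in β-like cells. The summed members were then further from 1 in α-like cells (0.706) than in β-like cells (0.987).

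Egr1 was higher in Tg7 α-like cells, at 8.28 (7.87 to 8.71) against 5.28 (4.91 to 5.67) in Wild-type, a ratio of 1.57 that stayed at 1.45 when scaled to all UMIs. Nr4a1 had 68 UMIs in Tg7, against 107 in Wild-type α-like cells, a ratio of 0.498 (0.362 to 0.681), and Nr4a3 had 8 and 13, with an interval from 0.173 to 1.26. The calls of both thus lay at the edge of 2-fold, and Fosl2 stood just inside it at 0.504. Jund, at 33.6 per 10000 in Tg7, against 52.0 in Wild-type, had a ratio of 0.645, near its 0.652 in β-like cells. With TMM factors, which moved the α-like ratios slightly, 0 members were at least 2-fold lower, and without the α-like cells in which a second hormone held at least 10% it was 1 member.

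In δ-like cells Fosl2 and Nr4a1 were at least 2-fold lower and no member was 2-fold higher, of 9 with enough UMIs, where 3.55% of 9787 genes were lower and 3.58% higher. Nr4a1 had 0.423 per 10000 (68 UMIs) in Tg7, against 1.15 (120 UMIs) in Wild-type, a ratio of 0.367 (0.268 to 0.498), and Fosl2 a ratio of 0.410 (0.265 to 0.625). Fos had 10.9 in Tg7, against 17.9 in Wild-type δ-like cells, a ratio of 0.609, between those of β-like and α-like cells. Egr1 again stood on the other side, at 11.6 in Tg7, against 9.09 in Wild-type, a ratio of 1.28 (1.18 to 1.38). Insulin took 17.1% of the UMIs of δ-like cells in Tg7, against 29.8% in Wild-type, and Sst took 2.72% and 3.77%. Of 12 β markers, 8 were at least 2-fold lower in Tg7 δ-like cells. The part of β-cell RNA in the δ-like values was not tested.

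γ-like cells were few, and 6 members reached 20 UMIs. Junb was at least 2-fold higher in Tg7 and no member was 2-fold lower, where 7.18% of 3289 genes were higher and 4.26% lower. Junb had 113 UMIs in 27 Tg7 cells and 18 UMIs in 10 Wild-type cells, a ratio of 2.21 (1.34 to 3.86). Fos had 6.11 per 10000 in Tg7, against 9.69 in Wild-type γ-like cells, a ratio of 0.631, and 1 cell held 63 of the 181 Tg7 UMIs and 1 cell 47 of the 101 Wild-type UMIs. Egr1 had 7.12 in Tg7, against 4.79 in Wild-type, a ratio of 1.49 (1.09 to 2.06). Of its UMIs, 1 cell held 42 of the 211 in Tg7 and 1 cell 19 of the 50 in Wild-type. Nr4a3 had 0 UMIs in both libraries.

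Endothelial-like cells gave the highest levels of Nr4a1 and Fosl2 in either library. Nr4a1 had 3.03 UMIs per 10000 (38 UMIs) in Tg7, against 6.47 (168 UMIs) in Wild-type endothelial-like cells, a ratio of 0.468 (0.320 to 0.669). Fosl2 had 1.59 in Tg7, against 3.62 in Wild-type, a ratio of 0.440, and Nr4a2 had 1.75 and 4.16, a ratio of 0.421. These 3 were at least 2-fold lower, of 9 members with enough UMIs, where 9.77% of 3642 genes were lower. Egr1 was at least 2-fold higher, where 6.51% of genes were, at 17.9 per 10000 in Tg7, against 8.31 in Wild-type, a ratio of 2.16 (1.78 to 2.61). Fos was at 19.5 in Tg7, against 12.8 in Wild-type, a ratio of 1.53 (1.29 to 1.81). The 7 hormone genes took 3.37% of UMIs in the 19 Tg7 cells and 0.191% in the 31 Wild-type cells.

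**Figure D4:**
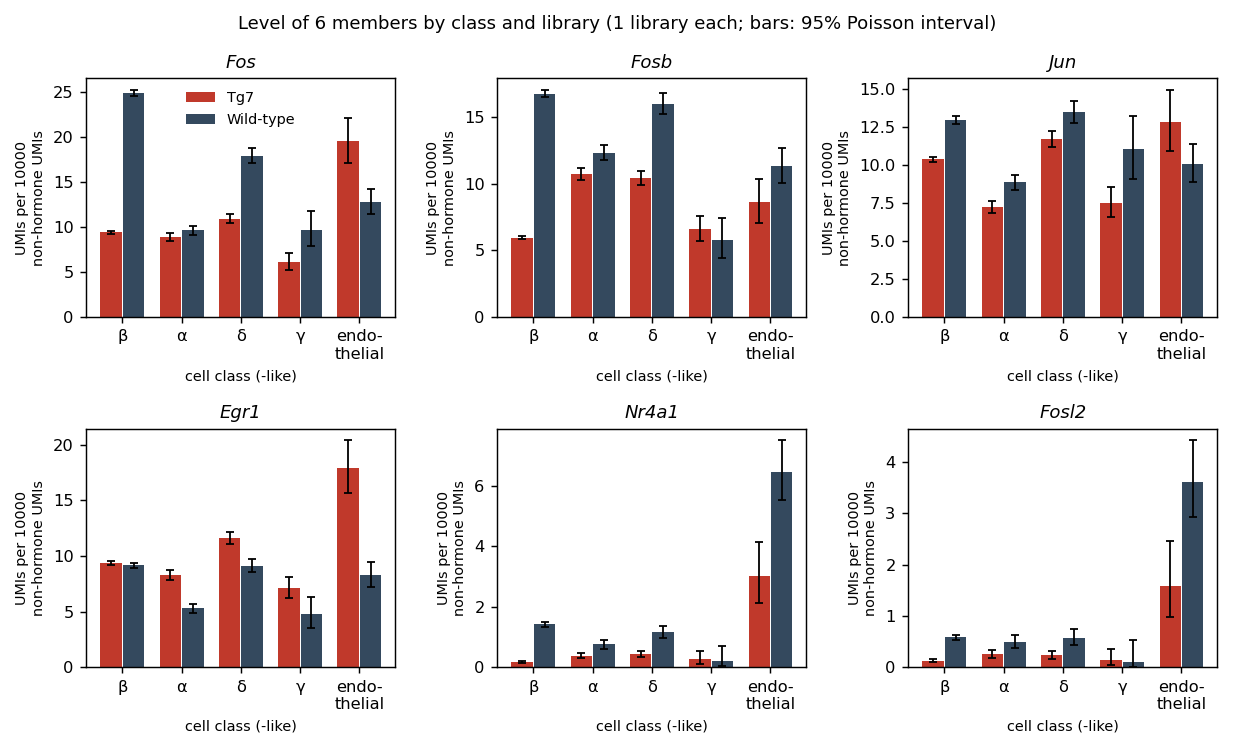
UMIs per 10000 non-hormone UMIs of 6 members in each class, Tg7 left of Wild-type, from 1 library each, with 95% Poisson intervals. Tg7 β-like cells have 9.40 for Fos, against 24.9 in Wild-type, the highest class there on this scale but not per 10000 of all UMIs, where it has 8.07 and endothelial-like cells 12.8.

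The order of the classes depended on the scale. Per non-hormone UMI, Fos in Wild-type was highest in β-like cells (24.9), then in δ-like (17.9), endothelial-like (12.8), γ-like (9.69) and α-like cells (9.62), with overlapping intervals for the last 2. In Tg7 it was highest in endothelial-like cells (19.5), then δ-like (10.9), β-like (9.40), α-like (8.92) and γ-like cells (6.11), with overlapping intervals for β-like and α-like cells. Per 10000 of all UMIs, a scale added after the data were seen, the order was the same in both libraries. It ran from endothelial-like (18.9) through δ-like (6.96), β-like (5.33) and α-like (4.71) to γ-like cells (2.86) in Tg7, and from 12.8 through 9.67, 8.07 and 5.50 to 4.14 in Wild-type. The first place of β-like cells in Wild-type thus held per non-hormone UMI and not per UMI of all genes. Across the classes with at least 20 UMIs, the ratio of Nr4a1 was below 1 in β-like, α-like, δ-like and endothelial-like cells, and that of Egr1 was above 1 in all 5 classes, though in β-like cells its interval held 1.

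Other genes of the response were read from lists. Of 34 other immediate early genes measured in β-like cells, 14 were at least 2-fold lower and 2 at least 2-fold higher in Tg7, where 5.79% of all genes were lower and 10.6% higher, and the median log2 ratio was -0.77. Scaled to all UMIs 4 were at least 2-fold lower and 6 higher, where 1.79% of all genes were lower and 33.9% higher, and the median was 0.04, against 0.79 for all genes. The same shares over all genes apply to the counts of the other lists in β-like cells. Gadd45g, a stress-induced growth regulator, had 0.727 UMIs per 10000 in Tg7, against 4.13 in Wild-type, 5.68-fold lower, and Npas4, a factor induced by calcium entry in neurons and β-cells, had 0.237 and 1.34, 5.64-fold lower. Socs3, a feedback inhibitor of cytokine signalling, was 3.55-fold lower and Egr4, a relative of Egr1, 3.18-fold lower. The other way, Rgs2, which restrains Gq signalling, had 7.21 in Tg7, against 2.90 in Wild-type, a ratio of 2.48, and Klf10, a TGF-β induced factor, had a ratio of 1.70.

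Of 8 measured partners of AP-1, 3 were at least 2-fold lower and none was higher, and on all UMIs 1 was lower and 1 higher. Maff had a ratio of 0.400, Mafk 0.488, and Atf3, a stress-induced factor of the ATF family, 0.646, as had Mafg at 0.648, while Atf7 was at 1.1. Fosl1, a Fos relative singled out after its values were seen, had 7 UMIs in Tg7, against 47 in Wild-type. The median of this list was -0.63, and on all UMIs it changed side, to 0.18.

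The list named ERK feedback, of Dusp phosphatases and Spry and Spred inhibitors, had 2 of 14 genes at least 2-fold lower and 3 higher, with a median of -0.14. On all UMIs 0 were lower and 5 higher, and the median was 0.67. Dusp10 had a ratio of 0.425, Dusp1 0.524, Dusp4 0.591 and Dusp5 0.856. Spred1, an inhibitor of Ras signalling, had 130 UMIs in Tg7, against 10 in Wild-type, a ratio of 8.41 (4.43 to 18.0), and Spred3 a ratio of 2.42. Its members thus stood on both sides of 1.

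Of 35 measured kinases and factors upstream of the members, 1 was at least 2-fold lower and 1 at least 2-fold higher, with a median of -0.20. On all UMIs 0 were lower and 7 higher, and the median was 0.61. The lower one was Srf, the factor of the serum response, at 0.660 UMIs per 10000 in Tg7, against 1.42 in Wild-type, 2.15-fold lower. Mapkapk2 was at 0.714, Mkl1, a coactivator of Srf, at 0.761 and Elk1 at 0.769. The higher one was Camk4, a calcium-dependent kinase that acts on CREB, with 152 UMIs in Tg7, against 11 in Wild-type, a ratio of 8.94 (4.86 to 18.3), and Mkl2 was at 1.68. Transcript levels of kinases say nothing of their activity.

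Heat shock genes, which dissociation also induces, gave 1 of 10 at least 2-fold lower and none higher in β-like cells, with a median of -0.27. On all UMIs 0 were lower and 1 higher, and the median was 0.53. Hspa1b was 2.12-fold lower, Hspa1a 1.96-fold and Hspa5, a chaperone of the endoplasmic reticulum, 1.84-fold lower, with Dnajb1 at a ratio of 0.718. Hspa8 was at 1.02 and Hspb1 at 1.45. The inducible Hspa1a and Hspa1b were thus lower beside Fos, and their part in the values of the members was not tested. In α-like cells none of the 10 passed 2-fold, and in δ-like cells 4 were at least 2-fold lower. The list medians in α-like cells were -0.32 for other immediate early genes, of which 5 of 31 were at least 2-fold lower and 0 higher, -0.36 for partners of AP-1, -0.18 for ERK feedback, -0.26 for upstream kinases and factors and -0.19 for heat shock genes.

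**Figure D5:**
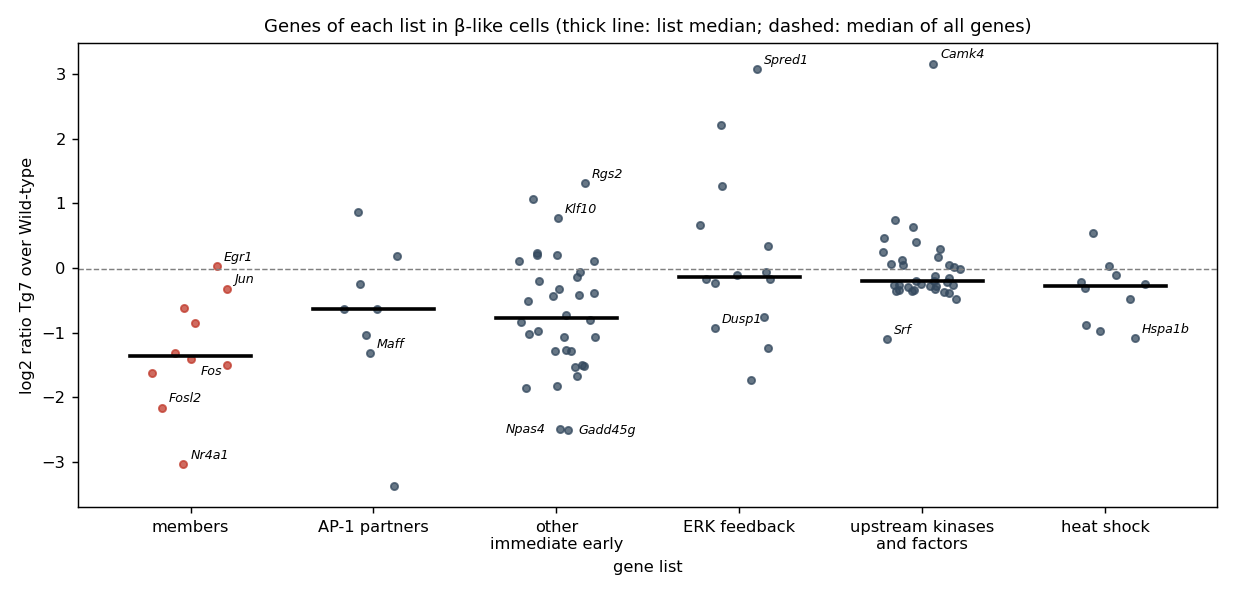
Log2 ratio of Tg7 over Wild-type in β-like cells for each gene with at least 20 UMIs, by list, with the list median as a thick line and the median of all genes (-0.02) dashed. The members have the lowest median (-1.36) of the 6 lists drawn, with Egr1 at the top and Nr4a1 at the bottom of their range.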

How the data were processed

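Islets of 1 Tg7 and 1 Wild-type group were dissociated and measured with 10x Genomics single-cell RNA-seq. The UMI counts of each barcode that the authors deposited were used without change (29931777 UMIs over 1123 Tg7 and 30829078 over 855 Wild-type barcodes). Per the submitters' processing notes, bcl2fastq 2.17.1.14 and Cell Ranger 3.0.2 with STAR were used on build mm10. Members and lists were chosen with earlier results of these data known.

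Barcodes with under 1000 UMIs or over 20% mitochondrial UMIs were dropped (117 Tg7, 100 Wild-type), then doublets called by Scrublet (in place of the study's DoubletFinder) in scanpy 1.11.5 at 0.8% per 1000 barcodes (14 Tg7, 6 Wild-type). Following the study, SCTransform (sctransform 0.4.2) and Seurat 5.3.0 integration preceded clustering on 20 components at resolution 0.5. Hormone genes and listed genes were left out, so 2912 of 3000 features were used. Clusters were named from markers among their 10 leading genes, by a scoring rule set after seeing the clusters, so classes can differ from those of the study. Hormone markers entered this naming.

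Counts were summed per class and library. Ratios have conditional exact binomial intervals, levels Poisson and shares Clopper-Pearson intervals. A ratio past 2-fold with at least 20 UMIs over both libraries was called. With 1 library per group no test across mice was possible. All 10 members are named, and from each other list up to 4 genes that differed most on the side of the list median and up to 2 on the other side, with at least 100 UMIs. The 5 similar genes had to be seen in at least 10% of cells. Ratios were tested on simulated data. There were 11 alternatives, among them TMM factors of edgeR 4.0.16, and Fos levels per 10000 of all UMIs were added after seeing the data.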

Additional observations from a re-analysis of the deposited data

Results flagged for a closer look

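Fos, Jun and Junb had ratios below 1 in β-like cells and above 1 in another class, with counting intervals on opposite sides of 1. The difference between classes was not tested, since each genotype is 1 library. Fos had a ratio of Tg7 over Wild-type of 1.53 in endothelial-like cells and 0.377 in β-like cells, and Jun had 1.27 in endothelial-like and 0.80 in β-like cells, although the β-like ratio of Jun was 1.40 when scaled to all UMIs. Junb had a ratio of 2.21 in γ-like cells, from 113 Tg7 and 18 Wild-type UMIs, and 0.403 in β-like cells.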

How the results depend on the processing

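The count of members at least 2-fold lower in β-like cells was 6 and became 2 when scaled to all UMIs, because hormones take unequal shares of both libraries. It stayed at 6 with TMM factors, with no or a stricter barcode filter, with called doublets kept, by the hormone gate, without cells with several hormones, without the 5% of cells with most member UMIs and with no UMI minimum, and was 5 with a minimum of 100 UMIs. In α-like cells the count was 2, became 0 with TMM factors, and became 1 with no barcode filter, with clusters without integration, by the hormone gate, without cells with several hormones, without the 5% of cells with most member UMIs and with a minimum of 100 UMIs. It was 3 when scaled to all UMIs and with doublets kept. No member was 2-fold higher in either class under any alternative that gave a value. Apart from scaling to all UMIs in β-like cells, the share of all genes was not measured under the alternatives. Without integration only 4 Tg7 cells were in β-like clusters, so no β-like value was had there. Clusters with 450 and 221 Tg7 cells, in which insulin took 27.5% and 31.9% of UMIs, were then left unnamed. The β-like name of Tg7 cells thus depended on integration with Wild-type cells. Of 99 ratios of single members in β-like cells under alternatives, 18 left the main counting interval, and of 105 in α-like cells 7 did. Those on the other side of 1 were Jun (1.40) and Jund (1.1) on all UMIs, Egr1 in β-like cells (0.963 by the hormone gate and 0.977 without cells with several hormones), and Fos in α-like cells (1.01 and 1.001 under the same settings). The Nr4a1 ratio in β-like cells ranged from 0.120 to 0.213.

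Depth limits the rarer members. Nr4a3 had 15 Tg7 and 30 Wild-type UMIs in β-like and 8 and 13 in α-like cells, and γ-like and endothelial-like cells rest on few cells. The intervals hold no spread between mice, which 1 library per genotype cannot give. There was 1 preparation for each genotype, so differences in handling cannot be told apart from genotype.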
